A study of Mus musculus with 20 samples.

Results

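The comparison set the whole colon of mice that lack Pcca in the gut (Vill) against the colon of mice that lack it in the liver (Alb), both on standard chow. It was chosen as the libraries labelled Chow, PCCA Vill and Chow, PCCA Alb, 4 animals each, which are 8 of the 20 libraries of the series. All animals of the comparison were 9 weeks old and had been fasted for 4 hours. Colons of 4 floxed controls (ff) on the same chow are given only as a reference level, and the other libraries of the series, from a high fat diet, are not used here. Vill and Alb are each a conditional knockout on floxed Pcca alleles. The labels write Vill, Alb and ff without spelling them out. Villin drives Cre in the epithelium of the gut, so muscle, nerves, vessels and immune cells of a Vill colon keep the gene. Albumin drives Cre in hepatocytes, so an Alb colon is itself expected to carry an intact gene and reports on a colon whose host lacks the enzyme elsewhere. The 2 knockout groups differ in the organ of the deletion and in the Cre transgene, and effects of the organ and of the transgene cannot be told apart. Whether animals of different groups were littermates is not given in the sources used here, and neither is the animals' sex. Each of the 12 chow libraries held between 22486 and 59322 reads of Xist and 0 of Ddx3y, as female tissue does.

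Propionyl-CoA carboxylase, whose alpha subunit is the product of Pcca, is the biotin-dependent mitochondrial enzyme that turns propionyl-CoA into methylmalonyl-CoA on its way to succinyl-CoA. Propionate reaches the colon as a product of bacterial fermentation, and what the epithelium does not use travels by the portal vein to the liver. Odd-chain fatty acids, several amino acids and the side chain of cholesterol feed the same pathway. The colon wall itself is a layered organ, in which epithelium sits on a stroma of fibroblasts, vessels and immune cells, surrounded by smooth muscle with its nerve plexus.

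Counted reads, in units of 1000000, came to 27.9 to 40.4 in Vill libraries, 27.9 to 38.0 in Alb libraries and 33.6 to 35.8 in ff libraries. Mitochondrial transcripts took 3.14 to 4.07% of the reads. Levels below are CPM, read counts per 1000000 reads of a library, after scaling with edgeR, and a log2 difference is Vill minus Alb from edgeR's quasi-likelihood fit of the 12 chow libraries. The first principal component took 45.9% of the variance and did not follow the groups. Vill 1, Vill 4, Alb 1, Alb 3 and ff 2 lay on one side of it and the other libraries on the other. The second component took 12.5%, and on it every Vill library lay above every Alb library. Vill libraries were at -5.85 to 52.4 there, Alb libraries at -29.5 to -12.7 and ff libraries, across both, at -15.6 to 10.4. Alb 2 stood apart by 2 keratins of squamous epithelium: Krt5 was at 39.7 CPM there and at most 0.399 in the other Alb libraries, and Krt14 was at 35.1 CPM against at most 1.2. The position of the sampled colon section is not given in the sources used here.

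Pcca itself separated the groups. It was counted at 27.7, 33.6, 29.2 and 29.5 CPM in Vill 1 to 4 and at 58.3, 38.9, 41.1 and 43.6 CPM in Alb 1 to 4. Every Vill colon lay below every Alb colon, and the ff colons spanned 39.5 to 57.2 CPM, which is the range of Alb. The Vill mean of 30.0 ± 2.50 CPM (SD, n = 4) was 66.0% of the Alb mean of 45.5 ± 8.75 CPM. The log2 difference was -0.60 with a 95% interval of -0.94 to -0.26 (edgeR adjusted p = 0.460, DESeq2 adjusted p = 0.072). The exact permutation test over all 70 assignments of the 8 animals gave p = 0.0286, two-sided, which is the smallest it can give. The gene shares 74878 bases with Ggact on the opposite strand, so its count is uncertain where both lie. The counts cover the whole gene, so transcripts that lack a deleted part are still counted, and the remaining level also includes every cell type that Villin-Cre leaves alone. In bulk tissue, fewer cells of a type and less RNA per cell cannot be told apart. The genes whose promoters name the Cre lines did not separate the groups: Vil1, villin, stood at 920 ± 239 CPM in Vill and 814 ± 198 in Alb, and Alb, albumin, at 19.7 ± 21.7 against 4.78 ± 2.95 CPM, with the 2 highest values, 25.8 and 47.8 CPM, in Vill 1 and Vill 4.

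Of 56748 genes in the table, 19701 passed the filter on low counts. At the threshold of 0.05 on the adjusted p, edgeR called 1 gene, the long non-coding RNA Gm45774, which is 0.00508% of the genes tested. At an unadjusted p under 0.05 stood 1748 genes (8.87%), 784 higher (3.98%) and 964 lower (4.89%) in Vill. Counted animal by animal, all 4 Vill colons lay above all 4 Alb colons in 510 genes (2.59%) and below them in 417 (2.12%), together 927 genes or 4.71%. That split follows the scaling: it was 384 higher and 489 lower with upper quartile scaling, and 321 and 502 with plain library size. DESeq2 on the same counts called 90 genes (0.457%), 34 higher (0.173%) and 56 lower (0.284%) in Vill, and in 87 of them the 2 groups did not overlap. On counts simulated with the spread that edgeR fitted, DESeq2 made a larger share of false calls than its threshold allows and edgeR a share near it. Counts drawn from edgeR's own fit cannot rank the 2 tools on the real libraries. The adjusted p-values of DESeq2 may be too small and are given only beside the calls of edgeR. The number of DESeq2 calls also rests on single animals. DESeq2 called 26 genes without Vill 3, 29 without Alb 1, 40 without Vill 1, 45 without Alb 2 and 51 without Alb 3, but 209 without Alb 4 and 219 without Vill 4.

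Over all 19701 genes tested, 52.8% had a log2 difference above 0, which is the background for the counts of higher members in each list below. The ff colons help place these genes. Over all genes tested, the ff mean was nearer to the Vill mean in 56.7%. Among the 510 genes with Vill above Alb it was nearer to Vill in 367, and among the 417 with Vill below Alb it was nearer to Vill in 219. The plot of all tested genes shows where the named genes lie.

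**Figure D1:**
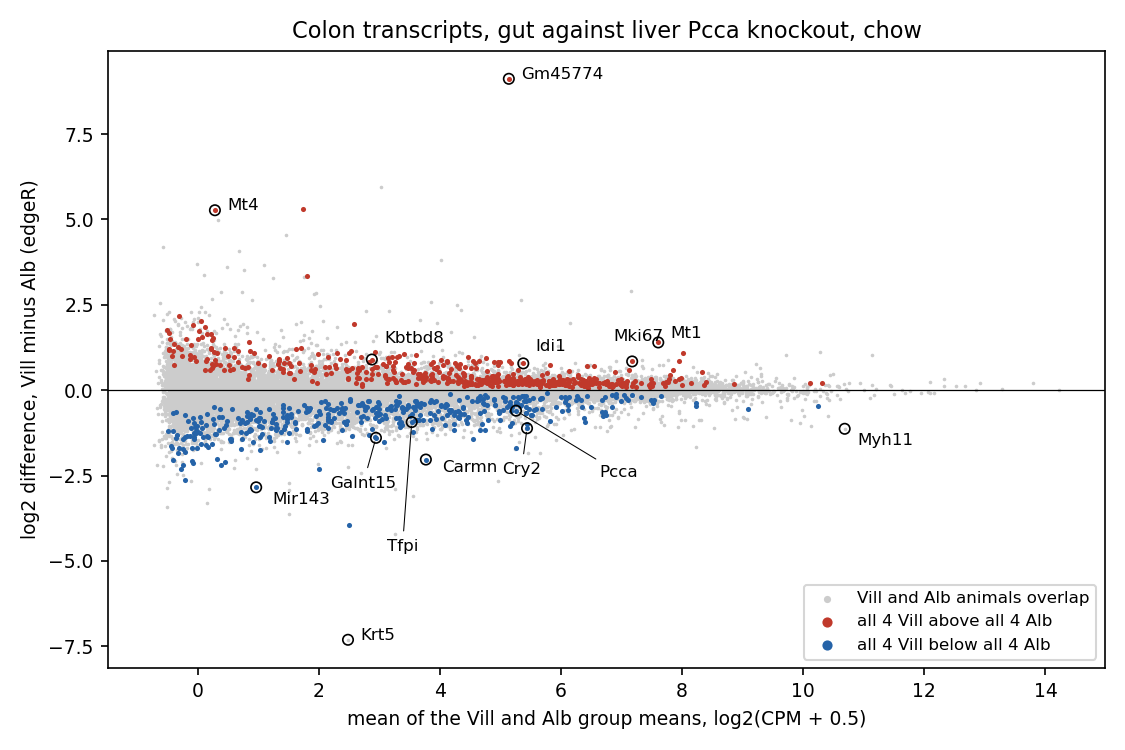
Each point is 1 of the 19701 tested genes; the horizontal axis is the mean level, log2(CPM + 0.5), and the vertical axis the log2 difference, Vill minus Alb. Red and blue mark the 510 and 417 genes in which the 4 Vill animals lie entirely above or below the 4 Alb animals, circles mark named genes, and Gm45774 lies far above all others at 9.12.

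Gm45774 rose in Vill. It stood at 80.7, 55.9, 51.3 and 89.4 CPM in the 4 Vill colons and at 0.208, 0.0515, 0.254 and 0 CPM in the 4 Alb colons. No animal came near the other group, and the ff colons, at 0 to 0.398 CPM, were as low as Alb. The log2 difference was 9.12 with a standard error of 0.75 (edgeR adjusted p = 0.00105). Summed over animals it was 9318 reads against 15, a ratio of 560 with an interval from counting error alone of 339 to 1001. The gene lies on the minus strand of chromosome 8 (mm39), between 94897376 and 94900040, has no function described in the files, and shares 749 bases with Mt2 on the opposite strand. Mt2, a metallothionein, was itself counted at only 0.818 ± 0.288 CPM in Vill and 0.665 ± 0.320 in Alb. Whether the counting used strand is not given in the sources used here, and the reads where both genes lie can be credited to neither with certainty.

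The metallothioneins next to it are small proteins that bind zinc and copper. Mt1 was at 339, 190, 352 and 247 CPM in Vill and at 82.3, 137, 72.6 and 135 CPM in Alb. Each Vill colon was above each Alb colon, and the ff colons were lower than both at 34.5 to 79.3 CPM, overlapping Alb. The log2 difference was 1.40 with an interval of 0.74 to 2.06 (edgeR adjusted p = 0.401, DESeq2 adjusted p = 0.00735). Mt4, the metallothionein of stratified epithelia, had 177 reads in the Vill colons and 4 in the Alb colons, with every Vill colon at 0.665 to 2.41 CPM and 3 of the 4 Alb colons at 0. Ciapin1, which is needed for assembly of cytosolic iron-sulfur proteins, lies on the same chromosome and was at 39.9 to 44.8 CPM in Vill, 28.9 to 32.3 in Alb and 29.6 to 33.3 in ff (log2 difference 0.46, edgeR adjusted p = 0.246). Within 1 Mb of Gm45774 there were 46 other tested genes. Of these, 3 had all Vill colons above all Alb colons, namely Mt4, Mt1 and Ciapin1, beside 2.59% of all genes, and 2 had them below, the chemokine gene Ccl17 and Ccdc102a, beside 2.12%. The neighbourhood was chosen after the values of Gm45774 were known.

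Of the 17 tested genes of the metallothionein and zinc list, which holds the metallothioneins and the zinc transporters, 11 were higher and 6 lower in Vill. Their median log2 difference was 0.16, beside 0.02 for all genes tested, and Mt1 and Mt4 were the members whose groups did not overlap (2 of 17, beside 4.71% of all genes). The stretch before the start of Mt1 is shown because metallothionein promoters are the textbook site of metal response elements, whose core TGCNCNC (N is any base) was searched on both strands of the 250 bases upstream of the first listed start. RefSeq (GRCm38.p6, another build than the mm39 of the count table) gave an upstream stretch for 15 of the 17 genes. The core was found in 11 of them and in 43.8% of the 27025 upstream stretches of all genes. For Mt1 the stretch is chr8:94178839-94179088, plus strand, printed 5′ to 3′ with the match in capitals.
Mt1: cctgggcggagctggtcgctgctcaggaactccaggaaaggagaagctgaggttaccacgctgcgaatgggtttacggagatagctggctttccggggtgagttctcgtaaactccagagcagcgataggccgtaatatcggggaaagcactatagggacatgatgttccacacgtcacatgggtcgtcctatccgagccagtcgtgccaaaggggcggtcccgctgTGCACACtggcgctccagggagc

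Further genes with leading p-values on the higher side gave log2 differences from 0.30 (Top1) to 1.07 (Parpbp), without overlap between Vill and Alb. Gapdh, the glycolytic enzyme, was at 26.8, 25.6, 23.4 and 26.8 CPM in Vill and 16.2, 14.6, 16.4 and 16.7 CPM in Alb (log2 difference 0.68, edgeR adjusted p = 0.246). The ff colons, at 21.1 to 30.1 CPM, lay with Vill, and Alb was below both. The gene has many near-identical processed copies in the genome, and its low count is uncertain for that reason. Kbtbd8, a substrate adaptor of a ubiquitin ligase, was at 7.13 to 10.6 CPM in Vill, 6.54 to 7.82 in ff and 4.13 to 5.75 in Alb (log2 difference 0.90, edgeR adjusted p = 0.292). Ldah, a lipid droplet hydrolase, was at 64.0 to 75.6 CPM in Vill and 53.4 to 57.3 in Alb. Hsd17b12, which takes part in the elongation of long fatty acids, was at 95.3 to 102 CPM in Vill and 68.1 to 84.2 in Alb. Top1, DNA topoisomerase I, was at 100 to 107 CPM against 78.6 to 90.6. For Ldah, Hsd17b12 and Top1 the ff colons lay with Vill and entirely above Alb, at 68.1 to 74.7, 102 to 110 and 98.4 to 109 CPM. Eppk1, epiplakin, was at 68.8 to 93.5 CPM in Vill and 52.6 to 62.0 in Alb, with ff at 56.6 to 80.4 across both. Parpbp, a regulator of homologous recombination, was at 3.25 to 6.07 CPM against 1.78 to 2.75. Tmem181b-ps, a pseudogene at 32.1 to 54.0 CPM against 22.4 to 31.8, completes the side with Ttll3, Glb1 and Ydjc, whose log2 differences were 0.61, 0.50 and 0.41. The last 3 overlap other expressed genes (Arpc4, Tmppe and Ube2l3), as Eppk1 does (BC024139), and their counts are uncertain. These 11 genes all had adjusted p-values above 0.05 in edgeR and below 0.05 in DESeq2.

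**Figure D2:**
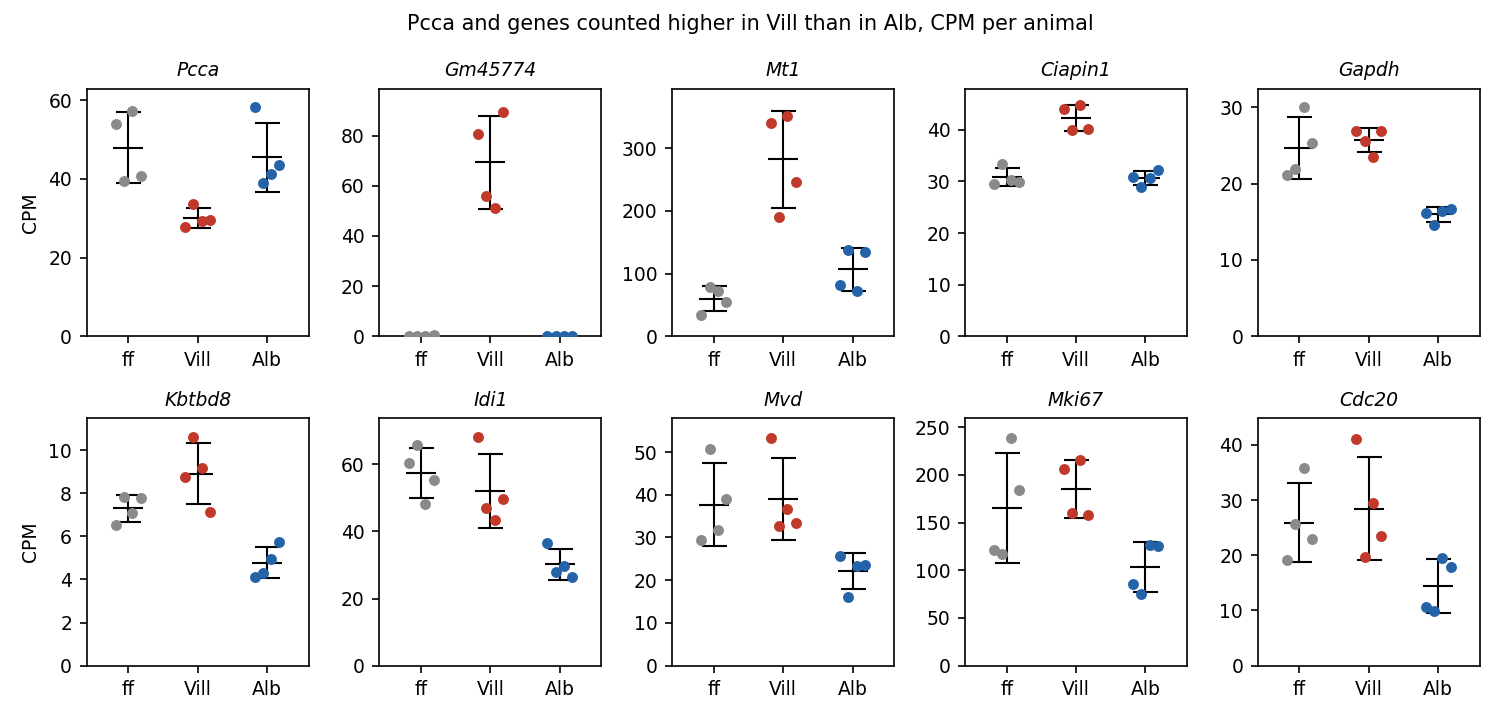
CPM of each animal (points), with the group mean and SD (black), for Pcca and 9 genes in which every Vill animal is above every Alb animal; ff, Vill and Alb are grey, red and blue. Pcca is lowest in Vill, and Gm45774, Mt1 and Ciapin1 are highest in Vill with ff beside Alb. The other 6 have their lowest mean in Alb and an ff mean nearer to Vill, while ff animals reach into the range of Alb for Mki67 and Cdc20.

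All 22 tested members of the cell division list, cyclins, mitotic kinases, spindle and kinetochore proteins, were higher in Vill than in Alb, and in 14 of them the groups did not overlap, beside 2.59% of all genes. None was called by edgeR, limma-voom or DESeq2, and 21 were at an unadjusted p under 0.05, beside 3.98% of all genes. The median log2 difference was 0.80, beside 0.02 for all genes. Mki67, the proliferation marker Ki-67, was at 207, 160, 215 and 158 CPM in Vill and at 85.7, 75.5, 126 and 125 CPM in Alb (log2 difference 0.84, edgeR adjusted p = 0.515). The lowest Vill colon was above the highest Alb colon, and the ff colons spread across both, from 117 to 239 CPM. Cdc20, the activator of the anaphase-promoting complex, was at 41.1, 19.7, 29.5 and 23.5 CPM in Vill and 10.6, 9.96, 19.5 and 17.9 in Alb, so Vill 2 and Alb 3 nearly met. Prc1, which bundles microtubules of the central spindle and overlaps the expressed Rccd1, was at 19.2 to 24.2 CPM against 9.40 to 15.2, and Cenpe, a kinetochore motor, at 25.2 to 34.4 against 11.4 to 20.6. Bub1b, a spindle checkpoint kinase, was at 19.6 to 31.2 CPM against 10.8 to 18.5. Plk1, a mitotic kinase, differed least, with a log2 difference of 0.19.

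The ff mean was nearer to Vill than to Alb for all 22 of these genes. As a mean of log2(CPM + 0.5) over the list, the 4 Vill colons stood at 4.62 to 5.17, the ff colons at 4.36 to 5.24 and the Alb colons at 3.56 to 4.48, with Alb 1 and Alb 2 lowest at 3.89 and 3.56. Without Alb 2 all 22 were still higher, 14 of them without overlap, beside 829 of the 19701 genes tested, and the median was 0.62. The fit with the smooth muscle level of each library as a covariate gave a median of 0.74. Genes that copy DNA differed less. Of 20 tested members of the DNA replication list, 19 were higher in Vill and none had groups apart, with a median of 0.32, which was 0.06 with the smooth muscle covariate. Uhrf1, which maintains DNA methylation, had the largest difference of that list at 0.60, and Gins1, a subunit of the replicative helicase, went against it at -0.05. The crypt stem cell list had 9 of 9 tested members higher with a median of 0.36, which turned to -0.27 with the smooth muscle covariate. Ephb2, a receptor of the crypt base, was the 1 member whose groups did not overlap (1 of 9, beside 4.71% of all genes). It was at 60.8 to 82.9 CPM in Vill, 46.0 to 60.8 in Alb and 47.1 to 64.6 in ff, and Vill 4 and Alb 4 all but touched.

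Upstream stretches of 5 leading cell division genes are printed because 2 motifs of mitotic promoters recur in the list. CCAAT was found on either strand in 16 of the 18 members matched in RefSeq (of 22 tested), beside 34.5% of all upstream stretches, and TTTGAA, the pattern of the cell cycle homology region, in 7 of 18, beside 16.3%. Both are short, and a match describes the sequence only. The stretches are 250 bases long, on GRCm38.p6, and run 5′ to 3′ along each gene: Prc1 chr7:80294201-80294450 (plus strand), Cenpe chr3:135212313-135212562 (plus), Bub1b chr2:118597961-118598210 (plus), Mki67 chr7:135716380-135716629 (minus) and Cdc20 chr4:118437344-118437593 (minus). Capitals mark CCAAT or its reverse complement ATTGG, and TTTGAA.
Prc1: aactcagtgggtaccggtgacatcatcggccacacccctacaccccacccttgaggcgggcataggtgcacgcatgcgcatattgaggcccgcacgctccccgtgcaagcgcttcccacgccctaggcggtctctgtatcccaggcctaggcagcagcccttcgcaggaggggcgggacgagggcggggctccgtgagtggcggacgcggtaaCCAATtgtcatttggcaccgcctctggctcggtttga
Cenpe: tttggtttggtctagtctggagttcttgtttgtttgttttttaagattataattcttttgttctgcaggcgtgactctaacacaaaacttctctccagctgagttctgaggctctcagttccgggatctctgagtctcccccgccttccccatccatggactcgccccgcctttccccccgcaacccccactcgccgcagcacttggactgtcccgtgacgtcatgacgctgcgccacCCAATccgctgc
Bub1b: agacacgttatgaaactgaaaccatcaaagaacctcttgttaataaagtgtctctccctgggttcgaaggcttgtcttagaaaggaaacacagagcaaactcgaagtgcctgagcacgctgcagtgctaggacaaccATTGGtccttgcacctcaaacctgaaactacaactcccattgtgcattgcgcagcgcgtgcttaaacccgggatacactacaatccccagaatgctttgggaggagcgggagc
Mki67: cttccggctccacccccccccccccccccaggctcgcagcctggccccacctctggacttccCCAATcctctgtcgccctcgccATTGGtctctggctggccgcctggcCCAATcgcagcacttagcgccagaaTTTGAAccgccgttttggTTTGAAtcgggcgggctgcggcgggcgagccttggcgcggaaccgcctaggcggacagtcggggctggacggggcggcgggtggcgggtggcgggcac
Cdc20: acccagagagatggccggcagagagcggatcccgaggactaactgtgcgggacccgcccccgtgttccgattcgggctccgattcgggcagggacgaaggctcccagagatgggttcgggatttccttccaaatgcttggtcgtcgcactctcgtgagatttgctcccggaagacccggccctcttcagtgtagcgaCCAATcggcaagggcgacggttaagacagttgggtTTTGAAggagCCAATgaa
Mki67 and Cdc20 hold both patterns, and Prc1, Cenpe and Bub1b hold a single CCAAT match each.

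All 25 tested members of the cholesterol synthesis list, enzymes from acetoacetyl-CoA to cholesterol with the regulators and carriers of the sterol pathway, were higher in Vill. The groups did not overlap in 6 of them, beside 2.59% of all genes, 19 were at an unadjusted p under 0.05, beside 3.98%, and none was called by edgeR or limma-voom, while DESeq2 called 1, Idi1. It interconverts the isoprenoid precursors and was at 68.1, 46.8, 43.4 and 49.6 CPM in Vill and 36.6, 27.9, 29.7 and 26.4 CPM in Alb. Each Vill colon was above each Alb colon, and the ff colons were as high as Vill at 48.1 to 65.6 CPM. Its log2 difference was 0.79 (edgeR adjusted p = 0.391, DESeq2 adjusted p = 0.0134). Mvd, the decarboxylase one step earlier, was at 53.3, 32.8, 36.7 and 33.4 CPM in Vill and 25.7, 16.2, 23.3 and 23.6 CPM in Alb. Msmo1, a sterol methyl oxidase, was at 144 to 203 CPM against 98.5 to 135, and Stard4, a sterol carrier, at 225 to 309 against 173 to 216. Hmgcs1, the cytosolic HMG-CoA synthase, and Srebf2, the transcription factor of the pathway, were the other members without overlap, with log2 differences of 0.86 and 0.36. Cyp51, lanosterol demethylase, had a log2 difference of 0.86 with groups that overlapped, at 106 to 221 CPM and 57.4 to 112 CPM.

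The ff mean was nearer to Vill for all 25 members. The list level was 5.98 to 6.63 in Vill, 6.08 to 6.57 in ff and 5.48 to 5.88 in Alb, so the Alb colons were the low ones. The highest Vill value belonged to Vill 1. The median log2 difference of the list was 0.50. It was 0.31 without Vill 1, 0.46 without Alb 2, where 8 of the 25 did not overlap, beside 829 of the 19701 genes tested, and 0.82 with the smooth muscle covariate. Upstream stretches of 17 members were matched in RefSeq, and TCACNCCAC, a sterol regulatory element pattern, was found in 1 of them (Hmgcs1), beside 1.04% of all stretches. Fatty acid synthesis, which shares acetyl-CoA and SREBP regulation with cholesterol synthesis, had 14 of 16 tested members higher in Vill and a median of 0.26. That median was 0.06 without Vill 1. Fasn, fatty acid synthase, was at 372, 213, 272 and 174 CPM in Vill and 140, 147, 148 and 179 CPM in Alb, with ff at 182 to 219 CPM. Vill 4 overlapped Alb 4. Acaca, acetyl-CoA carboxylase, was at 52.5 to 82.6 CPM against 40.7 to 59.2.

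The pathway of the deleted enzyme showed little else. Of 21 tested genes of propionate metabolism, 16 were higher and 5 lower in Vill, with a median of 0.10. Pccb, which encodes the partner subunit of Pcca, was at 145 against 135 CPM (log2 difference 0.10), and Mmut, methylmalonyl-CoA mutase, at 71.8 against 71.0 CPM (0.01). Suclg1, a succinyl-CoA ligase subunit at the end of the route, was at 209 to 253 CPM in Vill and 184 to 208 in Alb, and Mmachc, which processes cobalamin, at 10.1 to 14.5 against 7.57 to 8.91. Those 2 and Pcca were the members whose groups did not overlap (3 of 21, beside 4.71% of all genes), with edgeR adjusted p = 0.551 for Suclg1 and for Mmachc. Other energy pathways differed by small amounts. All 29 tested genes of oxidative phosphorylation were higher in Vill with a median of 0.13 and a largest difference of 0.21, and 19 of 23 genes of fatty acid oxidation were higher with a median of 0.14. Glycolysis had 10 of 14 higher, with Gapdh and Pgam1, phosphoglycerate mutase, as members without overlap (2 of 14, beside 2.59% of all genes). Pgam1 was at 152 to 181 CPM in Vill and 125 to 143 in Alb.

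**Figure D3:**
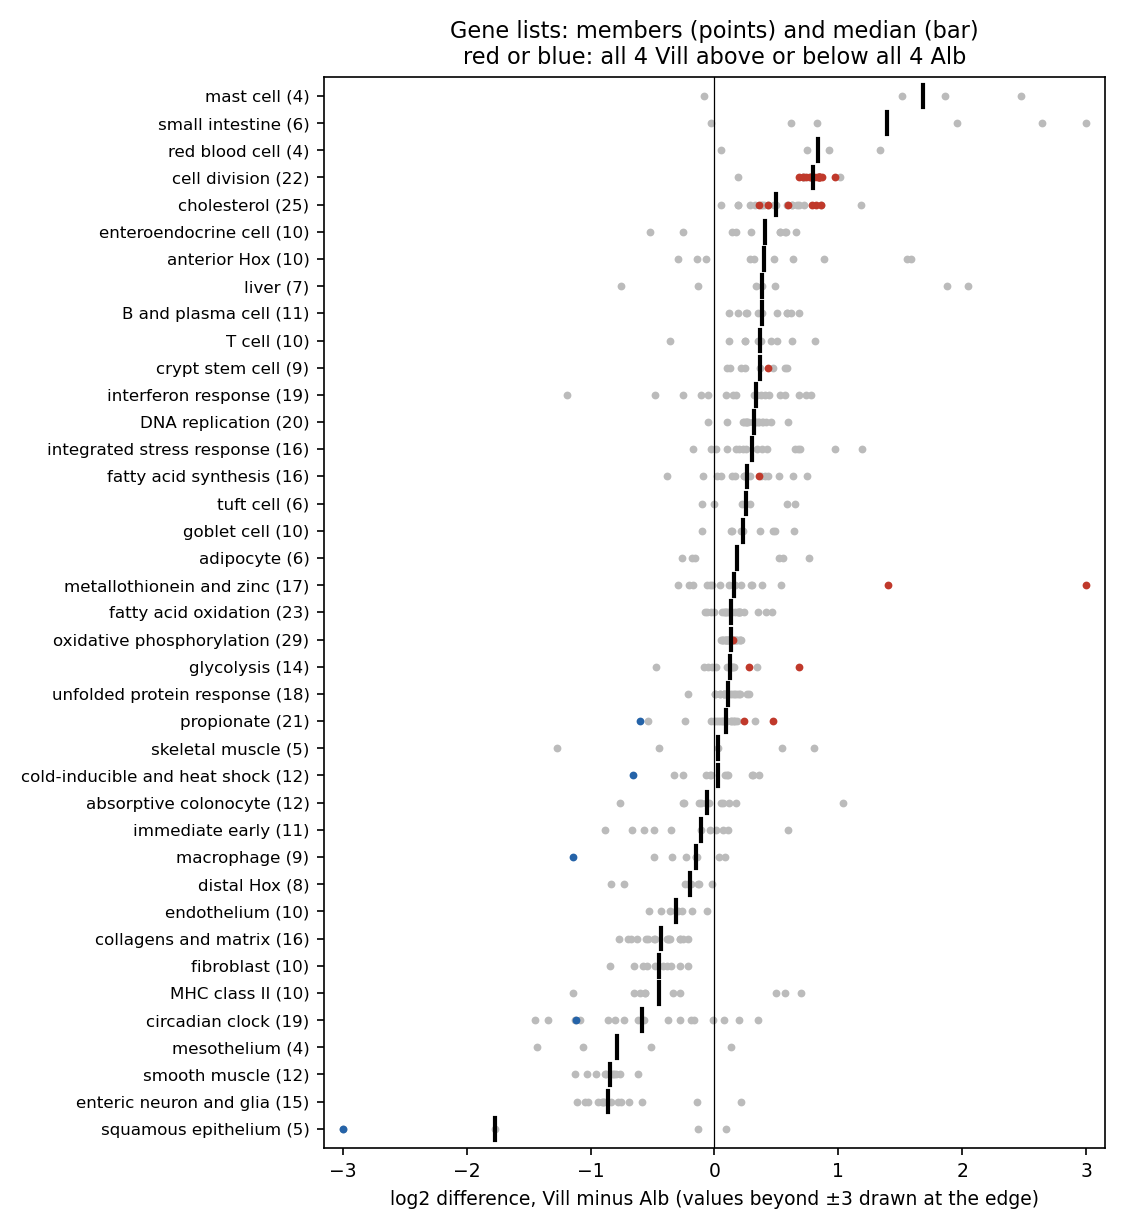
For every list with at least 4 tested genes (number in brackets), points give the log2 difference of each member, Vill minus Alb, and the black bar the median. Red and blue members do not overlap between the 4 Vill and 4 Alb animals; cell division (14 of 22) and cholesterol (6 of 25) hold most of the red points, and smooth muscle and enteric neuron and glia lie to the left without any blue point.

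On the lower side no gene was called by edgeR, and Tfpi, the inhibitor of tissue factor, had the smallest p-value. It was at 7.42, 7.00, 6.77 and 9.31 CPM in Vill and 14.5, 16.7, 13.8 and 13.2 CPM in Alb. No animal overlapped, and the ff colons, at 9.71 to 11.5 CPM, lay between the groups and clear of both. The Vill mean was 52.4% of the Alb mean (log2 difference -0.93, edgeR adjusted p = 0.238, DESeq2 adjusted p = 4.15e-07). Galnt15, a glycosyltransferase that starts mucin-type chains, was at 2.92, 5.47, 3.09 and 4.37 CPM in Vill and 13.7, 10.4, 9.03 and 8.59 CPM in Alb. Its Vill mean was 38.0% of the Alb mean (log2 difference -1.39, edgeR adjusted p = 0.246). Nynrin, a gene of retroviral origin, was at 5.82 to 8.01 CPM in Vill, 7.78 to 10.0 in ff and 10.8 to 14.3 in Alb. Plpp3, a lipid phosphate phosphatase, was at 20.7 to 27.2 CPM in Vill, 26.2 to 34.6 in ff and 33.9 to 40.8 in Alb. In these 4 genes the means ran from Vill through ff to Alb, and ff overlapped Vill in Galnt15, Nynrin and Plpp3, and Alb in Plpp3.

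Tgfbr3, the TGF-beta co-receptor betaglycan, was at 10.5, 19.6, 13.0 and 18.1 CPM in Vill and 40.5, 34.7, 39.2 and 22.4 CPM in Alb, with ff at 20.6 to 29.4 CPM. Alb 4 was the Alb colon nearest to Vill. Setd7, a lysine methyltransferase, was at 72.8 to 94.3 CPM in Vill and 108 to 141 in Alb, and Ctdsp2, a small phosphatase acting on the RNA polymerase II tail, at 239 to 265 against 317 to 389. Ctdsp2 stands among the more abundant of these genes, and its Vill mean was 72.5% of the Alb mean (edgeR adjusted p = 0.292, DESeq2 adjusted p = 2.11e-05). Foxn3, a forkhead repressor, was at 63.7 to 79.7 CPM in Vill and 66.6 to 77.6 in ff, both below Alb at 92.8 to 116. Zfp516, Klhdc8b, Calcoco1, Mettl24 and Ebf3 had log2 differences of -0.64, -0.73, -0.58, -1.26 and -1.21, each without overlap between Vill and Alb, and Klhdc8b shares 1055 bases with the expressed Ccdc71. Fgfr2, a fibroblast growth factor receptor, was at 49.9 to 60.2 CPM against 72.1 to 98.3, but its interval in the deposited annotation overlaps 71 other genes, among them the abundant Dmbt1 and Oat, and its count is uncertain.

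The 3 largest log2 differences among the genes that DESeq2 called lower and that reached a mean of 2 CPM came from neighbouring genes. Carmn, a long non-coding RNA of smooth muscle and heart, was at 3.76, 5.27, 1.54 and 10.2 CPM in Vill and 37.7, 20.0, 14.6 and 12.0 CPM in Alb (log2 difference -2.03, edgeR adjusted p = 0.460, DESeq2 adjusted p = 0.0142). The groups were apart by a narrow gap between Vill 4 and Alb 4, and ff lay at 8.62 to 12.9 CPM. The precursors of 2 microRNAs beside it, which promote the contractile state of smooth muscle, had the same order: Mir145a was at 0.349 to 2.22 CPM in Vill and 3.00 to 10.6 in Alb, and Mir143 at 0.163 to 0.536 against 1.26 to 4.65. Reads of a poly-A library on these genes are fragments of longer transcripts, not mature microRNAs. Inha, the inhibin alpha subunit, and Tmem200b were at 0.705 ± 0.367 and 4.09 ± 0.995 CPM in Vill and at 2.37 ± 0.711 and 11.8 ± 5.81 in Alb. Among the genes that DESeq2 called higher at a mean of 2 CPM or more in Vill or Alb, Gm45774 was followed by 3 antibody gene segments with uneven animals, which share sequence with other segments: Ighv1-12 was at 0.546, 5.32, 0.582 and 15.8 CPM in Vill and at most 0.379 in Alb, Igkv4-58 reached 13.2 CPM in Vill 1, and Igkv4-80 overlapped.

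**Figure D4:**
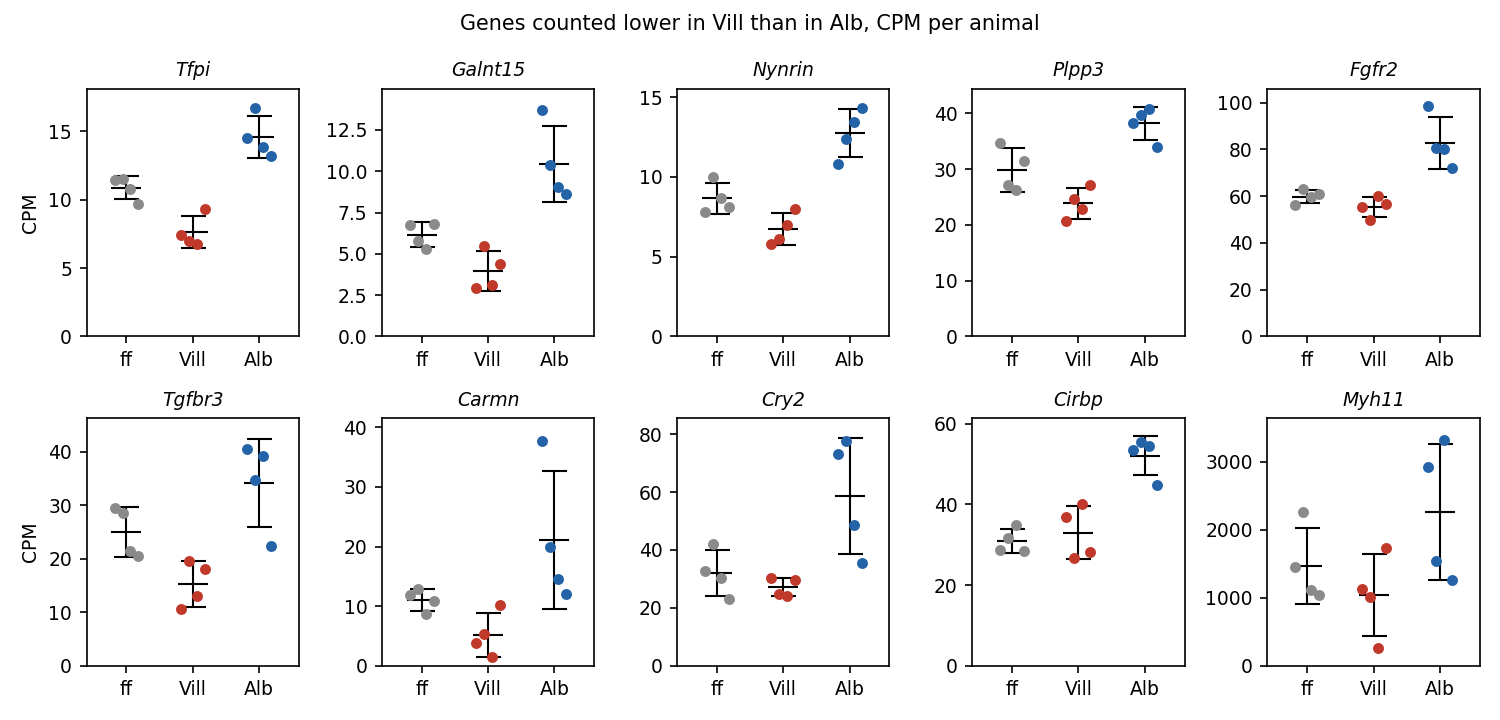
CPM of each animal (points), with the group mean and SD (black), for 10 genes with a lower mean in Vill than in Alb; ff, Vill and Alb are grey, red and blue. In 9 panels every Vill animal lies below every Alb animal; in the last, Myh11, the animals overlap.

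Marker lists of the muscle coat and its nerves moved with these genes, and their part in the differences was not tested. The smooth muscle covariate, here and above, comes from the same counts and itself differed between the groups, with mean list levels of 7.72 in Vill and 8.73 in Alb. Muscle content and group therefore cannot be told apart in that fit. All 12 smooth muscle markers were lower in Vill, with a median log2 difference of -0.84, and none had groups apart. Without Vill 4 the groups were apart in 6 of the 12, all lower, beside 1106 of the 19701 genes tested that were apart and lower. Without any other single Vill or Alb animal, none of the 12 had groups apart. Myh11, smooth muscle myosin, was at 1127, 1002, 265 and 1735 CPM in Vill and 2915, 1542, 3311 and 1265 in Alb. Vill 3 held the least and Alb 3 the most, and Vill 4 was above Alb 2 and Alb 4. Acta2, smooth muscle actin, and Smtn, smoothelin, which overlaps the expressed Gm11946, had log2 differences of -0.96 and -1.03. The list level was 6.20 to 8.76 in Vill, 8.13 to 9.42 in Alb and 8.05 to 9.02 in ff. Of 15 markers of enteric neurons and glia, 14 were lower with a median of -0.86, and Gfap, a glial filament, went against them at 0.21. Vip, a neuropeptide, was at 14.4, 31.0, 9.96 and 32.4 CPM in Vill and 51.5, 38.2, 42.9 and 31.0 CPM in Alb. Fibroblast markers were lower in 10 of 10 with a median of -0.44, and Dcn, decorin, had the smallest p-value of them at 90.6 to 189 CPM against 161 to 232. Endothelial markers were lower in 10 of 10 (median -0.31) and collagens and matrix in 16 of 16 (median -0.43), where Col5a1 and Eln, elastin, gave -0.55 and -0.77. With all 8 animals, no member of the 4 lists of muscle, nerve, fibroblast or endothelium had groups apart. With the smooth muscle level as a covariate, the medians were 0.01 for neurons and glia and -0.21 for collagens and matrix.

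Lists of immune cells pointed in different directions. All 11 markers of B and plasma cells were higher in Vill with a median of 0.38, which turned to -0.49 with the smooth muscle covariate, and none had groups apart. Macrophage markers were lower in 7 of 9, and Cd163, a haemoglobin scavenger receptor of resident macrophages, was the 1 without overlap (1 of 9, beside 4.71% of all genes). Cd163 was at 2.67, 5.74, 4.84 and 3.91 CPM in Vill and 9.90, 9.37, 10.1 and 8.53 CPM in Alb. The ff colons ranged from 2.92 to 9.84 CPM, across both groups. MHC class II genes had 7 of 10 lower with a median of -0.45, and H2-DMb1, a peptide loading chaperone, was at 6.74 to 13.5 CPM against 12.6 to 39.6. Interferon response genes had 14 of 19 higher with a median of 0.34, whose value ranged from -0.21 to 0.82 as single Vill or Alb animals were left out.

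Genes of the circadian clock were lower in Vill in 16 of 19 tested members, with a median of -0.59, while Clock, Nr1d1 and Nfil3 were higher at 0.08, 0.35 and 0.20. Cry2, a repressor of the clock, was the 1 member without overlap (1 of 19, beside 4.71% of all genes). It was at 30.1, 24.6, 24.1 and 29.5 CPM in Vill and 73.1, 77.5, 48.6 and 35.5 CPM in Alb (log2 difference -1.11, edgeR adjusted p = 0.435, DESeq2 adjusted p = 0.0128). The ff colons were at 23.0 to 42.0 CPM, reaching into the range of both groups, with a mean nearer to Vill. Per2, another repressor of the clock, was at 32.3, 26.9, 41.4 and 27.4 CPM in Vill and 134, 157, 24.5 and 33.0 in Alb. Alb 1 and Alb 2 carried the high values and Alb 3 and Alb 4 lay with Vill. Hlf, a clock output factor, was at 26.0, 20.2, 9.25 and 4.52 CPM in Alb 1 to 4. The list level showed the same: 5.54, 5.77, 4.93 and 4.71 in Alb, 4.74 to 5.04 in Vill, and 5.26, 5.31, 4.81 and 4.79 in ff 1 to 4. The median was -0.31 without Alb 2. The hour at which each animal was killed is not given in the sources used here. Cirbp, an RNA-binding protein induced by cold, was at 36.9, 26.7, 40.2 and 28.2 CPM in Vill and 53.4, 55.5, 54.4 and 44.9 CPM in Alb. Its groups did not overlap, ff lay with Vill at 28.4 to 34.8 CPM, and the log2 difference was -0.66 (edgeR adjusted p = 0.401, DESeq2 adjusted p = 0.0103).

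Differences along the colon also varied between animals. Distal Hox genes, whose expression marks the position along the gut, gave list levels of 1.59, 3.42, 4.49 and 4.32 in Vill and 3.11, 5.15, 2.21 and 3.95 in Alb. The lowest was Vill 1 and the highest Alb 2, so animals differed more within a group than the means, 3.45 and 3.60, differed between groups. All 8 tested members were lower in Vill with a median of -0.20, which became 0.93 without Alb 2. Anterior Hox genes had their highest level in Vill 1, at 4.47, and among Alb colons in Alb 3, at 3.72. The median of the squamous epithelium list, -1.77 over 5 tested genes, was -0.09 without Alb 2. Slc26a3, the chloride exchanger of surface colonocytes, was highest in Alb 2 at 3085 CPM, beside 912 to 1704 in the other Alb colons and 660 to 1279 in Vill. Sis, sucrase-isomaltase, a small intestinal enzyme, had means of 15.0 CPM in Vill, 0.245 in Alb and 8.52 in ff, with groups that overlapped. Single animals stood out in the level of the small intestine list. It was 4.75 in Vill 1 beside 1.42 to 2.40 in the other Vill colons, and 4.65 in ff 2 beside 1.80 to 2.33 in the other ff colons. The Alb colons were at 1.70 to 2.85. The part of section position in the differences between Vill and Alb was not tested.

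**Figure D5:**
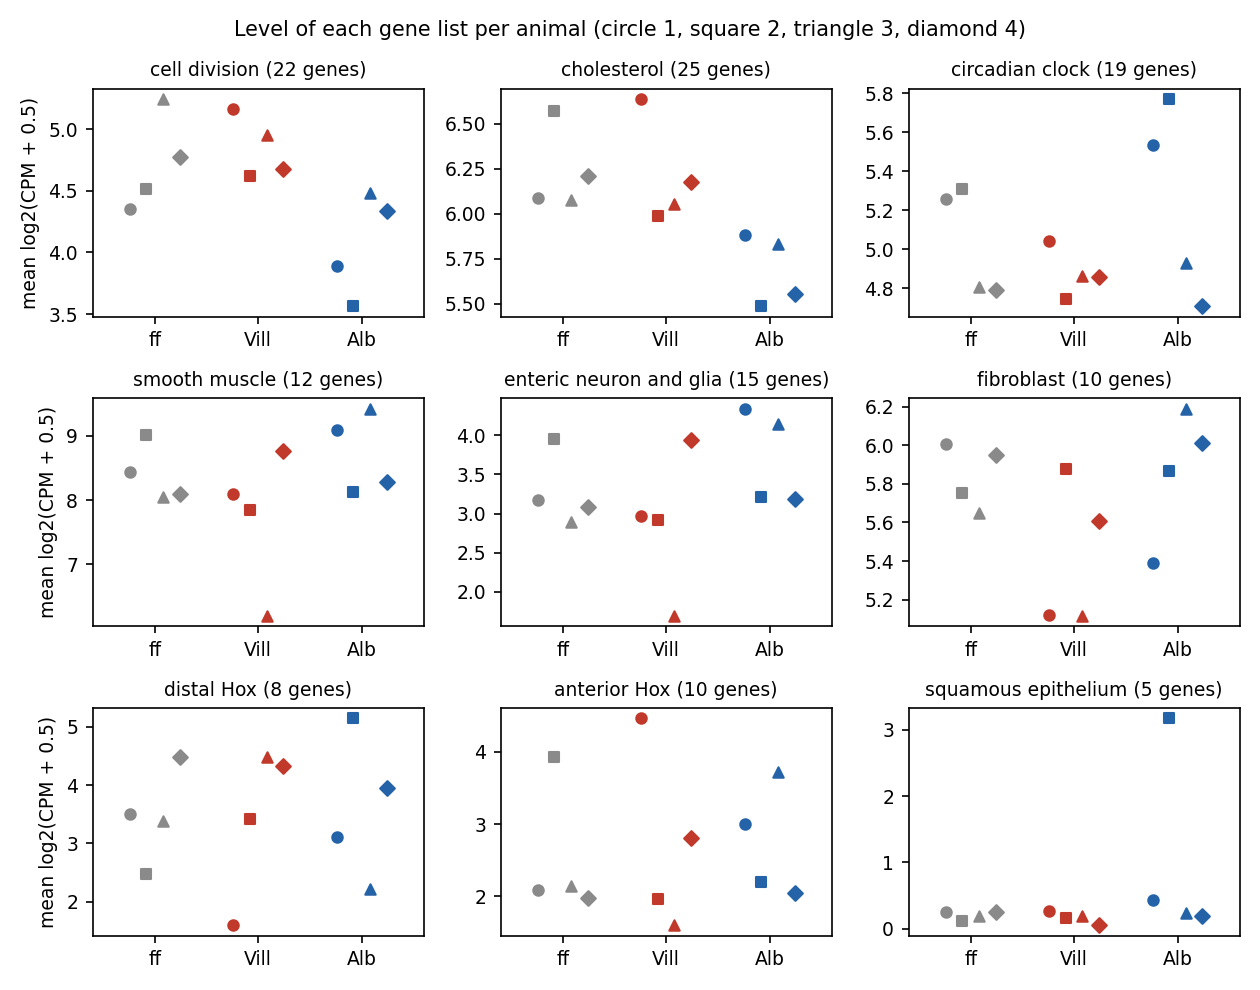
Mean log2(CPM + 0.5) over the tested genes of 9 lists, 1 point per animal, for ff (grey), Vill (red) and Alb (blue); the symbol gives the animal's number. Vill lies above Alb for cell division and cholesterol, whereas for the other 7 lists the animals of the 2 groups overlap, with Alb 2 alone at 3.18 for squamous epithelium.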

How the data were processed

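RNA from whole colon sections was sequenced as poly-A libraries, per the labels' protocols. The authors deposited read counts per gene and library; per the submitters' processing notes, the genome was mm39 and the tools were featureCounts 1.5.0-p3, HISAT2 2.0.5, edgeR 3.22.5 and DESeq2 1.20.0, with no role given. The 12 normalized per-sample columns and the authors' comparison columns were not used. Of 56748 genes, 22157 had no read in the 12 chow libraries. Counts were fitted with edgeR 4.0.16 (R 4.3.3), with the default expression filter, TMM scaling, a quasi-likelihood F test and Benjamini-Hochberg adjustment over all 19701 genes tested. The threshold on the adjusted p was 0.05. Alternatives were limma-voom from limma 3.58.1 and DESeq2 1.42.0. The pseudocount on CPM was 0.5. The fits were tested on data simulated with the spread that edgeR fitted, which cannot rank the tools on the real libraries. False calls there exceeded the threshold for DESeq2 and were near it for edgeR. Intervals are 95% and cover the spread between animals, except read ratios, which cover counting error only. Labels do not say that animals came from separate litters. In the fits, p-values set the difference of Vill and Alb against the spread between animals within the groups of the 12 chow libraries. Litter is not part of that spread.

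The 41 gene lists came from general knowledge, and members and lists were chosen with earlier results of these data known. Genes named were Pcca, Vil1 and Alb, the called gene, the 15 smallest p-values in each direction at a mean of 2 CPM or more, up to 5 leading or contrary members of each list described, and the 5 largest DESeq2 calls in each direction. Hmgcs1, Srebf2, Pccb, Mmut, Plk1, Uhrf1, Mt2, Sis, Cd163 and the neighbours of Gm45774 were named after their values were seen where the rule did not name them. Chosen after seeing the data were DESeq2 with the smooth muscle covariate, on 8 libraries and without single animals, and the non-overlap counts without single animals. A few list members go unreported.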

Additional observations from a re-analysis of the deposited data

Results flagged for a closer look

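Each group of 4 animals was searched for a highest or lowest value that lay far from the other 3, in 78 genes and 40 list levels, for Vill and Alb, which made 236 groups of 4. Of these, 8 were picked out. For unrelated groups, chance alone would pick out about 1 in 20. These groups share lists and many genes were named for their p-values, so that share is only a rough guide.

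Alb 2 stood above the other Alb colons for Krt5 (39.7 CPM, others 0 to 0.399), Krt14 (35.1 CPM, others at most 1.2) and the squamous epithelium list level (3.18, others 0.198 to 0.439). It was also above them for Ydjc, at 21.6 CPM beside 18.2 to 18.6. Mt4 was at 0.139 CPM in Alb 1, from 4 reads, and 0 in the other 3. Among Vill colons, Mmachc was at 14.5 CPM in Vill 3, beside 10.1 to 10.8. The metallothionein and zinc list level was 4.95 in Vill 1, beside 4.38 to 4.46. The mesothelium list level was 3.67 in Vill 2, beside 2.28 to 2.46.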

How the results depend on the processing

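Gm45774 was the single edgeR call under limma-voom, every edgeR scaling and filter tried, the robust fit, the fit of 8 libraries, the smooth muscle covariate and each left-out animal (1 call throughout). With a replicate block no gene was called: 0 higher and 0 in all, 1275 genes at an unadjusted p under 0.05, and the cause was not tested. Same-numbered Vill and Alb deviations correlated at 0.40, 0.26, -0.66 and -0.35, and not every animal correlated best with its own number. Whether the numbers pair animals of different groups is not given in the sources used here. Correlations over all genes cannot decide it, because differences between single colon sections also enter them.

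DESeq2 called 90 genes (34 higher, 56 lower), 77 on the 8 libraries alone (32 and 45, 50 shared with the 90), and 562 with the smooth muscle covariate (374 and 188, 58 shared). Without single animals it called 26 to 219 (9 to 87 higher, 12 to 169 lower). Without single animals, 1317 to 2167 genes had groups apart (710 to 1066 higher, 607 to 1106 lower). With plain library size 321 genes were apart and higher. Mt2 turned to -0.15 with the smooth muscle covariate in edgeR and in DESeq2. Of the 78 genes recomputed under every alternative, Mt2 was the 1 that turned direction in these fits. The depth of 27.9 to 40.4 (in units of 1000000 reads) leaves genes near 1 CPM with few reads, and a missed threshold does not show that a gene was alike in both groups.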
